A study of Mus musculus with 2 samples.

Results

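The mitochondrial genome of the mouse carries 37 annotated genes, and all 37 were found among the 55536 annotated genes of the deposited tables. They were taken as every gene of the GENCODE M21 annotation whose symbol starts with mt-. They comprise 13 genes for proteins, 2 for ribosomal RNAs (rRNAs) and 22 for transfer RNAs (tRNAs), each with 1 annotated transcript.

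Their RNA was measured by polyA plus RNA-seq, which enriches polyadenylated RNA, in cells labelled regulatory T cell, the Foxp3-dependent CD4 T cells that restrain immune responses. Library 2 and library 1 are technical replicates of 1 biological sample from 1 adult male mouse aged 4 months. The mouse was of the strain Foxp3CreERT2 x Rosa26YFP, in which the Foxp3 locus drives an inducible Cre and a YFP reporter sits at Rosa26. The labels trace the primary cells to a bone marrow hematopoietic cell, record Covaris shearing as the fragmentation, and give no sort or gate and no treatment. With 1 group there was no comparison between conditions. Every error and p-value below covers technical spread or counting error only. In such a bulk sample, fewer cells of a type and less RNA per cell cannot be told apart.

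Library 2 held 16153671 estimated counts on annotated genes and library 1 held 15821875. The markers of the labelled cell type were present: Foxp3 averaged 39.7 TPM (a level per length, scaled to the same total in each library), Il2ra 266 TPM, Ctla4 204 TPM, Ikzf2 464 TPM, Tnfrsf18 541 TPM and Izumo1r 1008 TPM. The T cell genes Cd4, Cd3e, Lck and Trac lay between 213 and 2530.1 TPM. Markers of other cells were low, with Cd8a at 2.00 and Cd8b1 at 12.6 TPM, the B cell genes Ms4a1 at 0.485 and Cd79a at 1.24 TPM, the myeloid genes Lyz2, Itgam and Csf1r between 0.120 and 0.600 TPM, and the red cell genes Hba-a1 at 2.30 and Hbb-bs at 7.33 TPM.

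Mitochondria keep a small circular genome that is copied into RNA from both strands. The protein genes encode subunits of the respiratory chain and of ATP synthase, which work beside subunits imported from the nucleus, and the rRNAs and tRNAs serve the organelle's own ribosomes. Transcription yields long precursors that span many genes. The tRNAs lie between the other genes, and cutting at them releases the individual mRNAs and rRNAs (the tRNA punctuation model). Most of the mRNAs and the rRNAs receive short 3′ adenine tails, some of which complete a stop codon that the genome encodes only in part.

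The annotation shows that arrangement on chromosome M of mm10. Of the 15 rRNA and protein genes, 8 had a tRNA gene on both sides, 6 on 1 side and 1 on neither. Of the 36 adjacent pairs of genes, 21 had no base between them, and 9 of these overlapped. The widest gap was 32 bases, between mt-Tn and mt-Tc. There were 28 genes on the plus strand, which belong to the heavy-strand transcript, and 9 on the minus strand, which belong to the light-strand transcript. The light-strand genes were mt-Nd6 and 8 tRNA genes.

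The sequences in the following lines, from the GENCODE M21 transcripts for mm10, show where neighbouring messages are joined. The mt-Atp8 and mt-Atp6 genes share 43 bases (chrM:7897-7999, plus strand, with 30 bases on each side) and mt-Nd4l and mt-Nd4 share 7 bases (chrM:10137-10203, plus strand). Capitals mark the bases that lie in both genes.
mt-Atp8 and mt-Atp6 overlap: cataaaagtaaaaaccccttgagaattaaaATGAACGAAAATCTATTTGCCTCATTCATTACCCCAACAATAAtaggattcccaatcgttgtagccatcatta
mt-Nd4l and mt-Nd4 overlap: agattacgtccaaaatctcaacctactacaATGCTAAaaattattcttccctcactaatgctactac

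In 3 of the 13 protein genes, mt-Co3, mt-Nd4 and mt-Cytb, the annotated length was not a multiple of 3 and the gene ended in a lone T. Their last 30 bases (chrM:9361-9390, chrM:11515-11544 and chrM:15259-15288, all plus strand) are set beside those of mt-Nd1 (chrM:3678-3707) and mt-Co2 (chrM:7667-7696). As annotated, mt-Nd1 and mt-Co2 end in a whole stop codon. In mt-Nd1 that codon runs into mt-Ti, which starts at chrM:3706 on the same strand. The end of mt-Nd2 likewise overlaps mt-Tw, which starts at chrM:4950. The number of 3 genes therefore holds for annotated lengths only. Capitals mark the stop codon or its encoded T.
mt-Co3 3′ end: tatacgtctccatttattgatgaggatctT
mt-Nd4 3′ end: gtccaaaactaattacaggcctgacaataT
mt-Cytb 3′ end: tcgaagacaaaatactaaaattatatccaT
mt-Nd1 3′ end: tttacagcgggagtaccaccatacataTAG
mt-Co2 3′ end: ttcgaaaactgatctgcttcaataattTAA

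Among the tRNA genes, the pair that holds most of the tRNA counts is mt-Ts1 (chrM:6870-6938, minus strand), a serine tRNA, and mt-Te (chrM:14071-14139, minus strand), the glutamate tRNA. They are shown with mt-Tl1 (chrM:2676-2750, plus strand), a leucine tRNA with the most counts of the heavy-strand tRNA genes, and mt-Td (chrM:6942-7011, plus strand), the aspartate tRNA, which had no count although it lies 3 bases from mt-Ts1. The end of mt-Co1 (chrM:6843-6872, plus strand) overlaps mt-Ts1 by 3 bases on the opposite strand, and capitals mark those bases in both.
mt-Co1 3′ end: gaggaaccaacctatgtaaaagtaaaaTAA
mt-Ts1: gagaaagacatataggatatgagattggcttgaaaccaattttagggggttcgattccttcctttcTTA
mt-Te: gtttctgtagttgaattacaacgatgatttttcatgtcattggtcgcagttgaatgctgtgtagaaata
mt-Tl1: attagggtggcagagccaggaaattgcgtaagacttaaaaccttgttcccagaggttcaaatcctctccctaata
mt-Td: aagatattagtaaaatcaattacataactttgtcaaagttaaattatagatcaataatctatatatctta

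The strands differ in base composition. The 12 heavy-strand protein genes held 5.88% to 16.1% G and 22.1% to 29.97% C, whereas mt-Nd6, the only protein gene of the light-strand transcript, held 28.1% G and 5.97% C. Among tRNA genes, G made up 17.9% to 29.9% of the light-strand genes and 7.14% to 21.3% of the heavy-strand genes, so these ranges overlapped.

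The 37 genes together took 4.15% of the counts of library 2 (exact Clopper-Pearson 95% interval 4.14% to 4.16%) and 3.51% of those of library 1 (3.50% to 3.52%), a mean of 3.83% ± 0.450 (SD, n = 2). The intervals treat reads as independent and do not overlap, so the libraries differed by more than counting error. Within the mitochondrial counts, the protein genes made up 67.2% in library 2 and 68.2% in library 1, the rRNA genes 32.5% in library 2 and 31.4% in library 1, and the tRNA genes 0.322% in library 2 and 0.369% in library 1. The largest contributors in both libraries were mt-Rnr2, with 28.3% in library 2 and 26.7% in library 1, and mt-Co1, with 16.3% in library 2 and 16.8% in library 1.

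Per length the picture of the tRNA genes was different. They made up 13.1% of the members' summed TPM in library 2 and 14.6% in library 1. For every member, the effective length in the deposited tables was 49 bases shorter than the transcript. A tRNA of 69 bases was therefore scored over 20 bases, and 1 count on mt-Ts1 was worth 3.83 TPM in library 2 and 4.02 TPM in library 1. For mt-Co1 the same count was worth 0.0513 TPM in library 2 and 0.0538 TPM in library 1. The TPM of tRNA genes are given below with their counts for that reason.

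At a level of 1 TPM or more in both libraries stood 30 of the 37 genes: all 13 protein genes, both rRNA genes and 15 of the 22 tRNA genes. The median over the 13 protein genes was 1998 TPM ± 180 (SD, n = 2). Over the 10238 nuclear protein genes at 1 TPM or more it was 18.4 TPM. Ranked among all annotated genes by mean TPM, 6 members stood in the top 20 and 10 in the top 100.

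**Figure D1:**
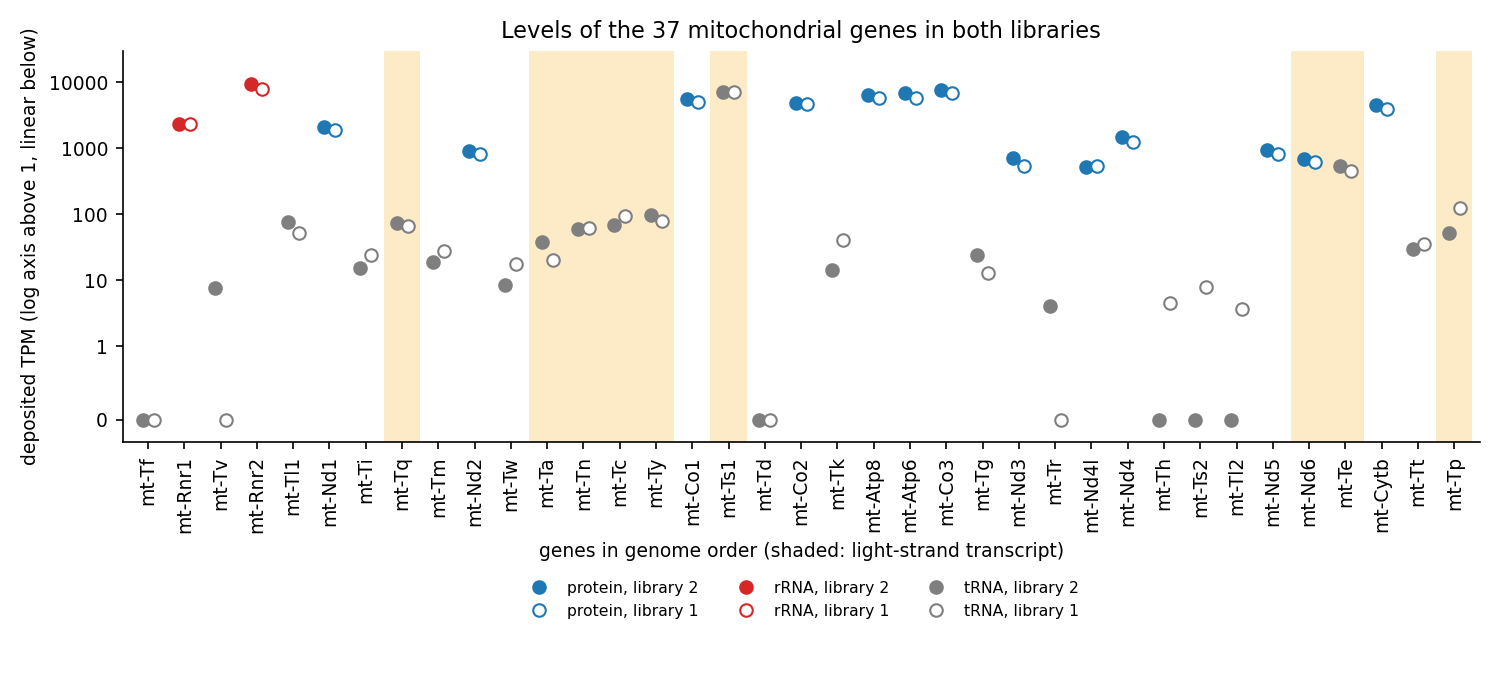
Deposited TPM (y axis, logarithmic above 1 and linear below) of the 37 mitochondrial genes in genome order (x axis); filled points are library 2, open points library 1, colours give the class of RNA, and shading marks the 9 light-strand genes. Protein and rRNA genes sit between 516 and 9496 TPM in both libraries, while the heavy-strand tRNA genes between them lie at or below 76.7 TPM and mt-Ts1 reaches 7137 TPM in library 2 and 7122 TPM in library 1.

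Among the rRNAs, mt-Rnr2, the large-subunit rRNA of the mitochondrial ribosome (ENSMUSG00000064339.1, chrM:1094-2675), had 9496 TPM in library 2 and 7769 TPM in library 1 and ranked 5 among all genes. The small-subunit rRNA mt-Rnr1 (ENSMUSG00000064337.1, chrM:70-1024) had 2371 TPM in library 2 and 2342 TPM in library 1, at rank 57. The 2 rRNA genes lie side by side in the same transcript with mt-Tv between them. The level of mt-Rnr2 was 4.01 times that of mt-Rnr1 in library 2 and 3.32 times in library 1. These values hold for RNA captured in polyA plus libraries, not for the amounts of the rRNAs in the cells, which were not measured.

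The protein genes fell into a high and a low block. The high block held all 3 subunits of cytochrome c oxidase (complex IV, which passes electrons to oxygen), both subunits of ATP synthase (complex V) and cytochrome b of complex III. The low block held all 7 subunits of NADH dehydrogenase (complex I, the entry point of electrons from NADH). The lowest value in the high block was 3906 TPM, for mt-Cytb in library 1, and the highest in the low block was 2126 TPM, for mt-Nd1 in library 2.

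In complex IV, mt-Co3 (ENSMUSG00000064358.1, chrM:8607-9390) had 7652 TPM in library 2 and 6797 TPM in library 1, the highest level of the protein genes. The catalytic subunit mt-Co1 (ENSMUSG00000064351.1, chrM:5328-6872) had 5609 TPM in library 2 and 5019 TPM in library 1. The copper-binding subunit mt-Co2 (ENSMUSG00000064354.1, chrM:7013-7696) had 4923 TPM in library 2 and 4656 TPM in library 1. These 3 ranges did not overlap in the deposited TPM. Pooled with its nuclear copy described below, mt-Co1 had 6411 TPM in library 2 and 5806 TPM in library 1. Pooled mt-Co2 had 6232 TPM in library 2 and 5585 TPM in library 1, so the pooled ranges of mt-Co1 and mt-Co2 overlapped. Their separation therefore depends on how reads were divided between the genes and their copies.

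In complex V, mt-Atp6, the subunit of the proton channel (ENSMUSG00000064357.1, chrM:7927-8607), had 6861 TPM in library 2 and 5775 TPM in library 1. The small subunit mt-Atp8 (ENSMUSG00000064356.3, chrM:7766-7969) had 6306 TPM in library 2 and 5696 TPM in library 1. The 2 genes share the 43 bases printed above and are known to be carried on a joint message. The ratio of mt-Atp6 to mt-Atp8 was 1.09 in library 2 and 1.01 in library 1, and their ranges overlapped. A nuclear copy described below, Gm10925, took 42.4% of the counts of mt-Atp6 and this copy in library 2 and 44.2% in library 1. With the copy pooled, mt-Atp6 had 11921 TPM in library 2 and 10348 TPM in library 1, above mt-Atp8 in each library. The ratio of the 2 genes therefore depends on how reads were divided between mt-Atp6 and its copy. In complex III, mt-Cytb (ENSMUSG00000064370.1, chrM:14145-15288) had 4484 TPM in library 2 and 3906 TPM in library 1.

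In complex I, the membrane subunit mt-Nd1 (chrM:2751-3707) led with 2126 TPM in library 2 and 1870 TPM in library 1, followed by mt-Nd4 (chrM:10167-11544) with 1462 TPM in library 2 and 1253 TPM in library 1. The proton-pumping subunits mt-Nd5 and mt-Nd2 came next: mt-Nd5 had 947 TPM in library 2 and 806 TPM in library 1, and mt-Nd2 had 917 TPM in library 2 and 814 TPM in library 1. Their order was exchanged between the libraries. At the low end, mt-Nd6 had 694 TPM in library 2 and 616 TPM in library 1. The gene mt-Nd3 had 707 TPM in library 2 and 543 TPM in library 1, and mt-Nd4l had 516 TPM in library 2 and 534 TPM in library 1.

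Neighbours in the order of levels whose ranges over the libraries overlapped were mt-Co3 and mt-Atp6, mt-Atp6 and mt-Atp8, mt-Nd5 and mt-Nd2, and mt-Nd6 and mt-Nd3. All other neighbours were separate in both libraries in the deposited TPM, without nuclear copies pooled. Genes that are cut from the same heavy-strand precursor spanned a wide range: mt-Co3 stood 14.8 times above mt-Nd4l in library 2 and 12.7 times in library 1. The overlapping genes mt-Nd4l and mt-Nd4 did not match in level, with mt-Nd4 2.83 times higher in library 2 and 2.35 times in library 1. Nearly all of the 50-base windows of mt-Co3 and of mt-Nd4l also occur in nuclear copies described below, which bears on both ratios. With the copies pooled, mt-Co3 had 11485 TPM in library 2 and 9976 TPM in library 1. Pooled mt-Nd4l had 639 TPM in library 2 and 534 TPM in library 1.

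The 9 light-strand genes took 0.949% of the mitochondrial counts in library 2 (95% interval 0.926% to 0.972%) and 1.01% in library 1 (0.981% to 1.03%). Most of this was mt-Nd6, with 4254 counts in library 2 and 3601 in library 1, and mt-Ts1, with 1861 in library 2 and 1771 in library 1. Although it comes from the other strand, mt-Nd6 was not the lowest of the complex I genes. The ratio of mt-Nd5, whose end overlaps the end of mt-Nd6 by 14 bases on the opposite strand, to mt-Nd6 was 1.36 in library 2 and 1.31 in library 1. The strand setting of the authors' counting is not given in the sources used here, so reads of a light-strand gene and of a heavy-strand RNA across the same bases cannot be told apart.

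The tRNA genes divided by strand. The 8 light-strand tRNA genes had 2101 counts in library 2 and 1990 in library 1, or 240 and 219 in the same libraries without mt-Ts1. The 14 heavy-strand tRNA genes together had 56 counts in each library. The median count per gene was 19 in each library for the light-strand tRNA genes and 2 in each library for the heavy-strand tRNA genes. All 8 light-strand tRNA genes reached 1 TPM in both libraries, against 7 of the 14 heavy-strand tRNA genes. The lowest of the light-strand tRNA genes, mt-Ta (alanine), with 10 counts in library 2 and 5 in library 1, lay below mt-Tl1, with 26 counts in library 2 and 17 in library 1. The counts of the strands therefore overlapped.

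With 7137 TPM in library 2 and 7122 TPM in library 1, mt-Ts1 ranked 10 among all annotated genes. Its level was 1.27 times that of its neighbour mt-Co1 in library 2 and 1.42 times in library 1. In human cells the mature mRNA of the mt-Co1 counterpart is known to end in a stretch complementary to this tRNA; whether that holds for these reads was not tested. Next came mt-Te, with 142 counts (545 TPM) in library 2 and 113 counts (454 TPM) in library 1, which lies directly beside mt-Nd6 on the same strand. Its level was 0.784 times that of mt-Nd6 in library 2 and 0.737 times in library 1.

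The other light-strand tRNA genes lay lower and close together. The proline tRNA mt-Tp had 12 counts in library 2 and 28 in library 1, mt-Ty (tyrosine) had 23 in library 2 and 18 in library 1, and mt-Tq (glutamine) had 21 in library 2 and 18 in library 1. The asparagine tRNA mt-Tn had 17 counts in each library, and mt-Tc (cysteine) had 15 in library 2 and 20 in library 1. In the order of mean TPM, adjacent genes from mt-Ty down to mt-Tn, mt-Tl1 included, overlapped in range over the libraries. Genes further apart in that order could be separate in range. An example was mt-Ty, at 98.0 TPM in library 2 and 80.4 TPM in library 1, and mt-Tn, at 59.3 TPM in library 2 and 62.2 TPM in library 1. The authors' own intervals, taken up below, overlapped for this pair. In library 2 they were 57.5 to 130 TPM for mt-Ty and 31.9 to 82.7 TPM for mt-Tn. In library 1 they were 42.9 to 110 TPM for mt-Ty and 32.6 to 86.0 TPM for mt-Tn.

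The remaining heavy-strand tRNA genes had at most 8 counts in either library. The threonine tRNA mt-Tt had 7 in library 2 and 8 in library 1, mt-Tk (lysine) 3 in library 2 and 8 in library 1, and mt-Tm (methionine) 5 in library 2 and 7 in library 1. The isoleucine tRNA mt-Ti had 4 counts in library 2 and 6 in library 1, mt-Tg (glycine) 6 in library 2 and 3 in library 1, and mt-Tw (tryptophan) 2 in library 2 and 4 in library 1. The valine tRNA mt-Tv, between the rRNA genes, had 2 counts in library 2 and 0 in library 1. The arginine tRNA mt-Tr had 1 in library 2 and 0 in library 1. For mt-Th (histidine), mt-Ts2 (serine) and mt-Tl2 (leucine), which form an uninterrupted cluster before mt-Nd5, the counts were 0 in library 2 and 1 in library 1.

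No count fell on mt-Tf, the phenylalanine tRNA at the start of the heavy-strand transcript, or on mt-Td. A count of 0 allows up to 3 counts, which is 12.1 TPM in library 2 and 12.7 TPM in library 1 for mt-Tf, and 11.0 TPM in library 2 and 11.5 TPM in library 1 for mt-Td. The counts thus leave room for these genes at levels up to those limits. The limits hold for RNA captured in polyA plus libraries, not for the amount of tRNA in the cells, which was not measured.

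Near-identical nuclear copies share reads with part of the mitochondrial genome. The annotation holds 7 unprocessed pseudogenes with 50% or more of their 50-base windows in a mitochondrial transcript. All 7 lie on chromosome 1 within 4663 bases (chr1:24611535-24616197, mm10, minus strand) in the gene order of the mitochondrial stretch from mt-Co1 to mt-Nd4. Over the aligned stretch 5 of them had no mismatch. Of the rest, with 1 mismatch each, Gm28438 carries T3C against mt-Nd3 and Gm29216 carries A1066T against mt-Co1. The mitochondrial base is given first, and positions count from the first base of the mitochondrial gene. For Gm29216, of 492 bases, the alignment ran over positions 1063 to 1545 of mt-Co1 and left some bases of the copy unaligned.

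The authors' estimated counts were divided between each gene and its copy, and the copies together took 0.664% of all counts in library 2 and 0.561% in library 1. On mt-Atp6 lay 56539 counts in library 2 and 45386 in library 1, and on its copy Gm10925 41695 in library 2 and 35934 in library 1. On mt-Co3 lay 73327 counts in library 2 and 62121 in library 1, and on its copy Gm28437 36738 in library 2 and 29047 in library 1. The copy's share of a pair was 0 in each library for mt-Nd4 and its copy Gm28439. It was highest for mt-Atp6 in library 2, at 42.4% beside 44.2% in library 1, and for mt-Nd3 in library 1, at 46.6% beside 41.1% in library 2. Identical windows hold no base that could assign a read to the chromosome 1 copy or to the mitochondrial gene.

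**Figure D2:**
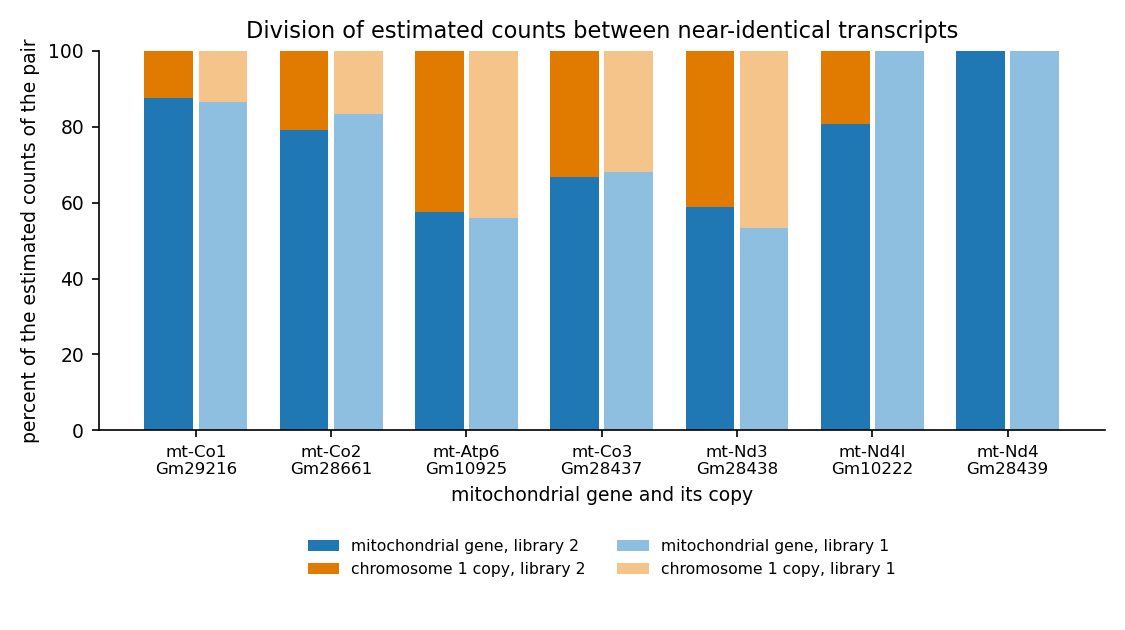
Percent of the estimated counts of each pair (y axis) that the deposited tables place on the mitochondrial gene (blue, lower part) and on its chromosome 1 copy (orange, upper part), with library 2 as the left and library 1 as the right bar of each of 7 pairs (x axis). The share on the copy is 42.4% in library 2 and 44.2% in library 1 for mt-Atp6 and 0 for mt-Nd4, and for mt-Nd4l the libraries part, with 19.2% in library 2 and 0.00243% in library 1.

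Pooling each gene with its copy, at the effective length of the mitochondrial gene, changed the order in both blocks. Pooled mt-Atp6 had 11921 TPM in library 2 and 10348 TPM in library 1, above pooled mt-Co3 with 11485 TPM in library 2 and 9976 TPM in library 1. Pooled mt-Co1, whose copy covers only its end, had 6411 TPM in library 2 and 5806 TPM in library 1. In the low block, pooled mt-Nd3 had 1201 TPM in library 2 and 1019 TPM in library 1, which is above mt-Nd5, mt-Nd2 and mt-Nd6 in each library. The gene mt-Atp8 shares no window with any other annotated gene and stayed at 6306 TPM in library 2 and 5696 TPM in library 1. The stretch of 233 bases between the copies Gm10925 and Gm28661, on chromosome 1, carries no annotated copy and was not analysed here. With the copies added, mitochondrial sequence took 4.81% of the counts in library 2 and 4.07% in library 1.

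The authors' own intervals were wider for genes with many shared windows. In 5 genes (mt-Co2, mt-Atp6, mt-Co3, mt-Nd3 and mt-Nd4l), 95% or more of the windows also occur in another gene. For these, the upper bound of the deposited interval around the posterior mean TPM was 1.15 to 1.89 times the lower bound in library 2 and 1.24 to 1.72 times in library 1. For the other 10 rRNA and protein genes it was 1.01 to 1.06 times in library 2 and 1.01 to 1.07 times in library 1. The TPM printed above lay over the upper bound in all 10 of these genes in each library, and in 3 of the other 5 in library 2 and 4 in library 1. In the 10 genes the posterior mean was 0.894 times the TPM in library 2 and 0.889 to 0.890 times in library 1. This is nearly the same factor for each gene of a library. In the 5 genes with many shared windows it was 0.724 to 0.882 times in library 2 and 0.737 to 0.887 times in library 1. The deposited posterior mean TPM, a second estimate from the same reads, put the top 3 genes in another order in library 2: mt-Atp6 at 5889, mt-Atp8 at 5638 and mt-Co3 at 5538 TPM. In library 1 mt-Atp8 had 5066, mt-Atp6 5012 and mt-Co3 5009 TPM.

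Each gene's rounded estimated counts in library 2 and library 1 were set against the scaled library sizes in a two-sided exact binomial test, and p-values were adjusted over all genes by Benjamini-Hochberg at 0.05. It compares the reads of 2 libraries of the same sample, has no replicate check and says nothing of a condition. Of the 28 members with a summed count of 10 or more, 15 were called different, 14 of them higher in library 2 and 1 lower. Over all 17458 genes tested, 25.1 percent were called, 11.8 percent higher in library 2 and 13.4 percent lower. Deep genes pass such a test more easily: at a summed count of at least 1000, 37.3 percent of genes were called and 16.9 percent were called higher in library 2, beside 14 of the 16 members with that count, all 14 higher.

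The differences were small. The median log2 ratio of library 2 over library 1 was 0.20 over the 28 members tested and 0.21 over the 13 protein genes, beside -0.0017 over all genes tested. Both rRNA genes were called, with a log2 ratio of 0.33 (95% interval 0.32 to 0.34) for mt-Rnr2 and 0.05 (0.03 to 0.08) for mt-Rnr1. These intervals do not overlap, so the 2 neighbouring rRNAs differed between the libraries by unequal amounts beyond counting error. With the further demand of a 1.5-fold difference, 1 member was called, mt-Tp, with 8.82 percent over all genes.

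Of the 13 protein genes, 12 were called, all higher in library 2. The log2 ratio was 0.42 for mt-Nd3, 0.29 for mt-Atp6, 0.27 for mt-Nd5, 0.26 for mt-Nd4 and 0.24 for mt-Cytb. It was 0.22 for mt-Nd1, 0.21 for each of mt-Nd6, mt-Nd2 and mt-Co3, 0.20 for mt-Co1, 0.18 for mt-Atp8 and 0.12 for mt-Co2. The exception was mt-Nd4l, with a log2 ratio of -0.01 (95% interval -0.11 to 0.09; adjusted p = 0.939 by the exact binomial test), whose copy Gm10222 had 397 counts in library 2 and 0.04 in library 1. With each copy pooled, the ratio of mt-Nd4l was 0.30, that of mt-Nd3 0.27 and that of mt-Co2 0.20. Over the 13 protein genes, the range of log2 ratios was 0.18 to 0.30 with copies pooled and -0.01 to 0.42 without.

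Among the tRNA genes, 13 were tested and 1 was called: mt-Tp, at 12 counts in library 2 and 28 in library 1, was lower in library 2, with a log2 ratio of -1.22 (95% interval -2.36 to -0.23; adjusted p = 0.0448 by the exact binomial test). It is the only member below 1000 summed counts that was called. Its call was lost when genes of any count were tested. For mt-Ts1 the log2 ratio was 0.04 (95% interval -0.05 to 0.14; adjusted p = 0.612 by the same exact test), and for mt-Te it was 0.30 (95% interval -0.07 to 0.67; adjusted p = 0.242 by the same exact test). The upper bound for mt-Ts1 lies under the median of the protein genes.

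These calls rest on counting error alone. The common dispersion of both libraries, taken by edgeR as 1 group, corresponds to a coefficient of variation of 13.03% between them. It comes from the same 2 libraries that are then compared, so the differences under test are already part of that spread. A test against it is therefore no separate check of the calls. The edgeR exact test with that dispersion called 0 of the 28 members at an adjusted 0.05 and 2.00 percent of all genes, and 1 member had an unadjusted p under 0.05.

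**Figure D3:**
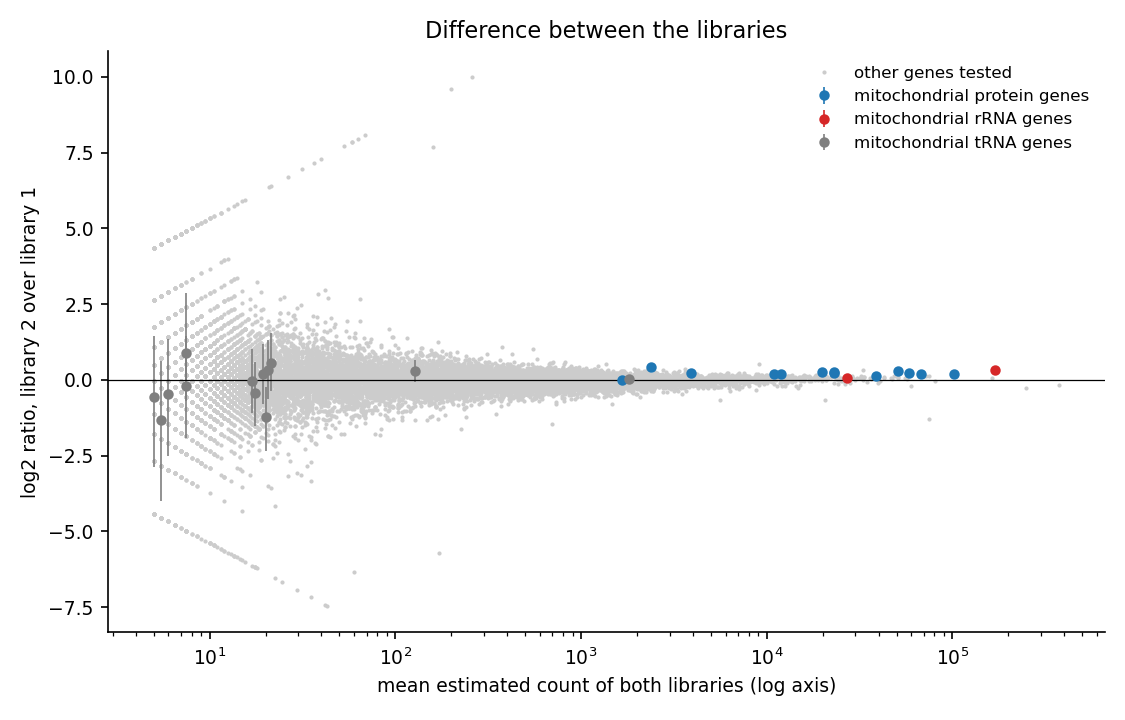
Log2 ratio of library 2 over library 1 (y axis) against the mean estimated count of both libraries (x axis, logarithmic) for the genes tested (grey) and for the mitochondrial protein (blue), rRNA (red) and tRNA (dark grey) genes, with 95% counting intervals as bars. The protein genes lie between -0.01 and 0.42 at high counts, 12 of 13 above 0, while the bars of most tRNA genes cross 0.

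The nuclear partners of these genes were looked up in 7 lists. Matching used only symbols carried by a single annotated gene, and Atp5o had no such match. The 116 genes matched were all tested. Of these, 30 were called different between the libraries (25.9%, against 25.1 percent of all genes), 22 higher and 8 lower in library 2. Most of the 116 had a summed count of at least 1000, and 37.3 percent of genes with that count were called. With the size factors of DESeq2 in place of TMM scaling, 36 of the 116 were called, 31 of them higher. With the common dispersion edgeR called 0, and 1 had an unadjusted p under 0.05.

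Levels per length were higher for the mitochondrial than for the nuclear subunits of each complex. The median of complex I was 917 TPM in library 2 and 806 TPM in library 1 for the 7 mitochondrial genes, and 161 TPM in library 2 and 147 TPM in library 1 for 36 nuclear genes. For complex III, mt-Cytb had 4484 TPM in library 2 and 3906 TPM in library 1, beside a median of 250 TPM in library 2 and 272 TPM in library 1 for 9 nuclear genes. In complex IV the medians were 5609 TPM in library 2 and 5019 TPM in library 1 for 3 mitochondrial genes, and 349 TPM in library 2 and 335 TPM in library 1 for 11 nuclear genes. In complex V they were 6583 TPM in library 2 and 5736 TPM in library 1 for 2 mitochondrial genes, and 294 TPM in library 2 and 305 TPM in library 1 for 14 nuclear genes.

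The ranges met only in complex I. There the accessory subunit Ndufa3, with 560 TPM in library 2 and 544 TPM in library 1, exceeded mt-Nd4l in each library. With the copy of mt-Nd4l pooled, mt-Nd4l had 639 TPM in library 2, above Ndufa3, and 534 TPM in library 1, below it. In the other complexes the highest nuclear genes were Uqcrh of complex III (676 TPM in library 2 and 649 TPM in library 1), Cox4i1 of complex IV (761 TPM in library 2 and 799 TPM in library 1) and Atp5e of complex V (498 TPM in library 2 and 469 TPM in library 1). The lowest were Ndufb4, Uqcrfs1, Cox5a and Atp5g2, with means of 48.5, 78.5, 173 and 37.1 TPM.

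**Figure D4:**
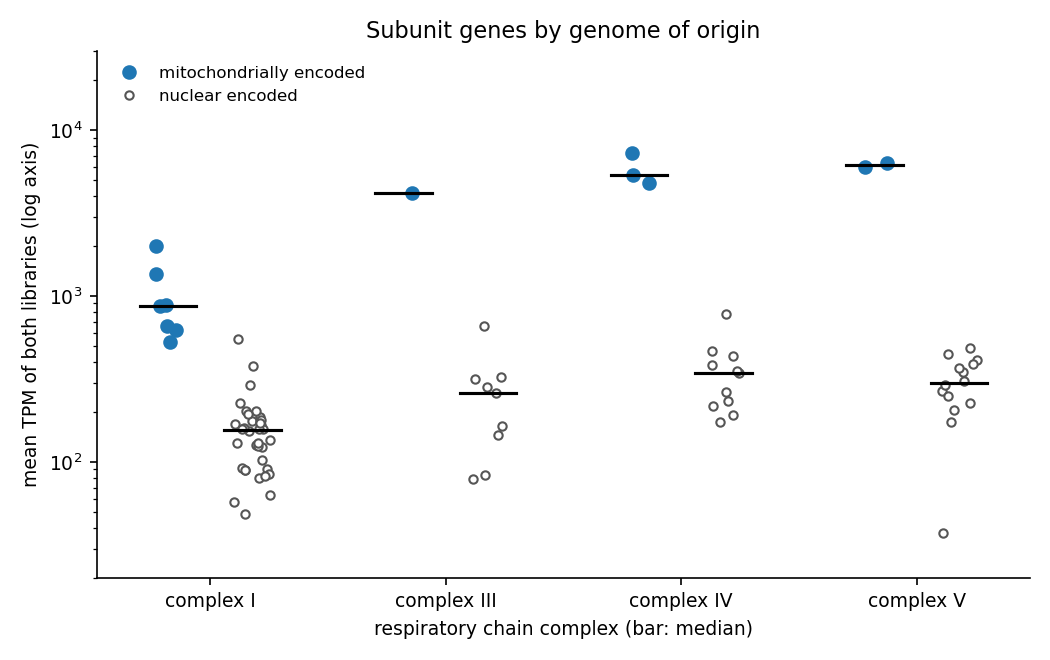
Mean TPM of both libraries (y axis, logarithmic) of the mitochondrially encoded (filled, left) and nuclear encoded (open, right) subunit genes of complexes I, III, IV and V (x axis), with a bar at each median. Every mitochondrial gene of complexes III, IV and V stands above all nuclear genes of its complex, and in complex I Ndufa3 (552 TPM) lies above mt-Nd4l (525 TPM without its copy).

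Between the libraries, the binomial test called 9 of the 36 nuclear genes of complex I higher and none lower in library 2. Over all genes, 11.8 percent were called higher and 13.4 percent lower. Most of the 36 had a summed count of at least 1000, and 16.9 percent of genes with that count were called higher. The largest ratios of the 9 were those of Ndufb3 (log2 ratio 0.26), Ndufa11 (0.20) and Ndufa5 (0.19). In complex III the test called 3 of 9 higher and 2 lower, among them Uqcrc2 (0.19), Uqcrc1 (-0.17) and Cyc1 (-0.31). In complex IV it called 3 of 11 higher, Cox5a (0.16), Ndufa4 (0.15) and Cox6a1 (0.10), and in complex V 5 of 14 higher, led by Atp5g2 (0.60), Atp5l (0.24) and Atp5g1 (0.15).

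The genes for factors that act on mitochondrial RNA were all lower than the mitochondrial mRNAs and rRNAs. Most mitochondrial tRNA genes lay in the same range of TPM as these factors, but on few counts over a short effective length. Apart from mt-Ts1 and mt-Te, no tRNA gene had more than 28 counts in either library. The factor gene Twnk, at 6.94 TPM, had 243 counts in library 2 and 253 in library 1. In the list of 15 genes for transcription and genome maintenance, means ranged from 6.94 TPM for the helicase Twnk to 90.8 TPM for the single-strand binding protein Ssbp1. The RNA polymerase Polrmt had 13.4 TPM in library 2 and 15.2 TPM in library 1, and was called lower in library 2 (log2 ratio -0.39). The termination factor gene Mterf1a (0.51) and the transcription factor gene Tfb2m (0.24) were called higher. Mterf1a has the near-identical relative Mterf1b, which was listed at 7.05 TPM in library 2 and 9.02 TPM in library 1, so their division is uncertain.

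Of 24 genes for processing and modification, means ranged from 2.04 TPM for Gtpbp3, a tRNA-modifying enzyme, to 92.6 TPM for Hsd17b10, a subunit of the enzyme that cuts tRNA 5′ ends. None of the 24 was called higher in library 2 and 3 were called lower, beside 11.8 percent of all genes higher and 13.4 percent lower. The 3 were Trit1 (-0.47) and Trub2 (-0.32), which modify RNA, and Tbrg4 (-0.25), a FASTK family protein. Elac2, which cuts tRNA 3′ ends, had 6.13 TPM in library 2 and 6.82 TPM in library 1. Of 7 genes for stability and decay, from 3.67 TPM for Pde12, which removes adenine tails, to 122 TPM for the oligoribonuclease Rexo2, these same 2 were called, both lower (log2 ratios -0.29 and -0.13). The scaffold Lrpprc, which keeps mitochondrial mRNAs stable with Slirp, had 8.79 TPM in library 2 and 10.2 TPM in library 1.

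A smaller deposited gene table of whole-number counts on the older GENCODE M4 annotation gave another account of the same genes. It totals 3680387 counts in library 2 and 3746426 in library 1 and lists the 13 protein genes, but no rRNA or tRNA member. These 13 took 0.336% of its counts in library 2 and 0.327% in library 1. In the larger table the same 13 genes took 2.78% in library 2 and 2.39% in library 1. Of the 13 genes, 5 were at 0 in both libraries: mt-Co2, mt-Atp8, mt-Atp6, mt-Co3 and mt-Nd4l. In the larger table mt-Co3 had 73327 counts in library 2 and 62121 in library 1. At 2 counts in library 2 and 4 in library 1 stood mt-Nd3.

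The remaining 7 genes had nearly the same count in both libraries. The counts were 3159 in library 2 and 3107 in library 1 for mt-Nd5, 2252 in library 2 and 2246 in library 1 for mt-Cytb, and 1867 in library 2 and 1863 in library 1 for mt-Nd1. They were 1675 in library 2 and 1638 in library 1 for mt-Nd2, 1435 in each for mt-Co1, 1030 in each for mt-Nd4, and 919 in library 2 and 908 in library 1 for mt-Nd6. The order no longer followed the levels: mt-Nd5 stood above mt-Co1, whereas in the larger table the level of mt-Co1 was 5.92 times that of mt-Nd5 in library 2 and 6.23 times in library 1.

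The counts instead ran along the length of sequence found in no other gene. Per 50-base window not shared with another annotated gene, the 7 genes had 1.84 to 2.06 counts in library 2 and 1.80 to 2.05 in library 1. Across the 13 genes, Spearman's rho of the smaller table's count with the number of such windows was 0.955 in each library, and with the larger table's count it was 0.0848 in library 2 and 0.102 in library 1. These describe 13 genes of the same libraries, which are not independent. The exception was mt-Atp8, at 0 counts although all of its 155 windows are free of sharing with annotated genes.

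In the smaller table, of 22083 genes with 200 or more exon bases, none exceeded 2 counts per base. The highest was mt-Cytb, at 1.97 in library 2 and 1.96 in library 1, and the highest outside the mitochondrial genome was Ighm, at 1.65 in library 2 and 1.63 in library 1. The larger table held 4.63 times the smaller table's count for mt-Nd6 in library 2 and 3.97 times in library 1. For mt-Co1 it held 76.2 times in library 2 and 65.1 times in library 1. Over the totals the ratio was 4.39 in library 2 and 4.23 in library 1. The treatment of duplicate and multiply mapped reads in the smaller table is not given in the sources used here, and its part in these counts was not tested.

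Since these 7 genes held close to 2 counts per unshared window in each library, the smaller table left little room for a difference between the libraries. In it the same binomial test called 0 of the 7 members with a summed count of 10 or more, beside 10.5 percent of all its genes, and 0 of them had an unadjusted p under 0.05. The median log2 ratio of these members was 0.01. In the larger table all 7 were called higher in library 2, on which the counts of the smaller table do not bear.

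**Figure D5:**
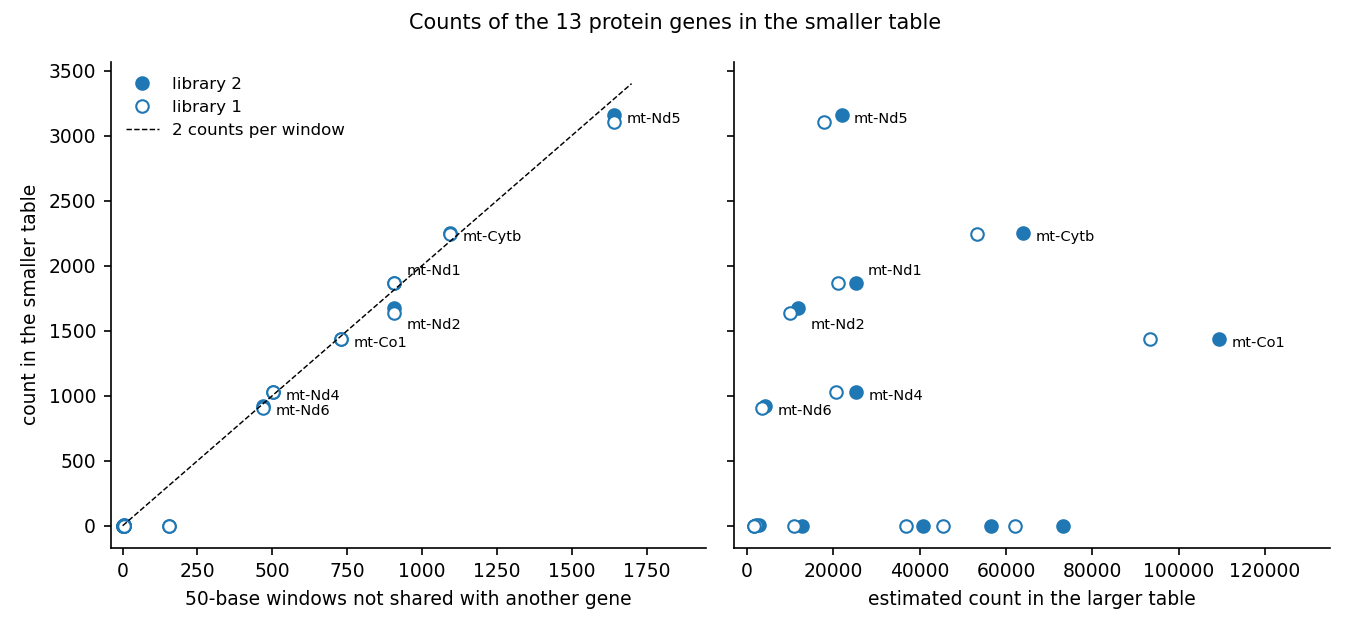
Count in the smaller table (y axis) of the 13 mitochondrial protein genes against the number of 50-base windows not shared with another gene (left, x axis) and against the estimated count in the larger table (right, x axis); filled points are library 2 and open points library 1. On the left 7 genes follow the dashed line of 2 counts per window, at 1.84 to 2.06 counts in library 2 and 1.80 to 2.05 in library 1, with mt-Atp8 at 0 beside 155 windows, while on the right mt-Co1 has fewer counts than mt-Nd5 despite the largest estimated count.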

How the data were processed

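Each of the 2 technical libraries had a larger gene table, a transcript table and a smaller gene table, on mm10 per the deposited readme texts. The larger table uses GENCODE M21 and has, per the file headers, estimated counts (expected counts) that the authors did not scale, TPM scaled over all features by the authors, posterior mean TPM, and bounds of its interval (a score in TPM whose level is not given). The column names are those RSEM writes; aligner, versions and strand setting: not given in the sources used here. The smaller table, deposited with GENCODE M4, holds whole-number counts. Values are ranges or the mean ± SD of the libraries.

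The members and gene lists were chosen with earlier results of these data known. Named are all members, the highest, lowest and up to 3 called genes of each nuclear list by size of ratio, the copies with the most counts, and the cell type markers (some are not reported here); other genes were named after their values were seen. Estimated counts were rounded, scaled by TMM (edgeR 4.0.16, R 4.3.3) and tested with an exact binomial test (scipy 1.17.1) at a summed count of 10 or above; log2 ratios use a prior count of 0.5. DESeq2 1.42.0 size factors were an alternative. Shared windows are 50-base stretches found in a transcript of another gene, in the same orientation. Of the 81881 features, 26248 with numeric identifiers and 96 spike-in sequences, with 0 counts, were not used.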

Additional observations from a re-analysis of the deposited data

How the results depend on the processing

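No paired analysis was possible because all samples form 1 group. The number of members called different between the libraries, 15, was 14 or 15 with DESeq2 size factors, plain totals, no count filter or a summed count of 50 or more. It was 1 when a 1.5-fold difference was also required, 0 in the smaller gene table and 0 with edgeR's exact test at the common dispersion, where 1 of the 28 had an unadjusted p under 0.05. The number of nuclear list genes called, 30, was 36 with DESeq2 size factors, 29 with plain totals and 0 with edgeR's exact test. The median log2 ratio of the members, 0.20, was between 0.17 and 0.23 with other scalings, a prior count of 2, deposited TPM or pooled copies, and 0.011 in the smaller table. The members tested in the smaller table held close to 2 counts per unshared window in each library, so its values do not bear on the difference. The dispersion of edgeR's exact test came from the same 2 libraries that it compares, so that test is no separate check of the calls.

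The median TPM of the 13 protein genes, 1998, was 1782 with posterior mean TPM, and 1870 to 2126 with either library left out. The 30 members at 1 TPM in both libraries became 37 with posterior mean TPM, which gives genes without a count a value above 0, and 32 or 33 in either library alone. The share of counts on the mitochondrial genome, 3.83% over all 37 genes, was 4.44% with the nuclear copies added, and 3.51% to 4.15% with either library left out. In the smaller table, which lists only the 13 protein genes, the share was 0.331%, beside 2.59% for the same 13 in the larger table. The share of light-strand counts, 0.978%, was 1.44% without the rRNA genes, 0.682% without mt-Ts1, and 0.949% to 1.01% with either library left out. It was 7.44% in the smaller table, where mt-Nd6 is the only light-strand gene and no rRNA or tRNA member is listed. Over the same 13 protein genes the larger table gave a far smaller share. There mt-Nd6 had 4254 of 449715 counts in library 2 and 3601 of 378670 in library 1. The alternatives that pool copies or leave out mt-Ts1 were chosen after seeing the data. With posterior mean TPM, 19 of the 37 single genes moved by more than the SD of the libraries, and all 13 protein genes were lower. In the 10 rRNA and protein genes with under 95% of their windows shared, the posterior mean was lower by nearly the same factor within each library. Few counts limit the tRNA genes, whose intervals cover counting error only. Those counts describe RNA captured in polyA plus libraries and set no limit on the tRNA in the cells.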
